A study of Homo sapiens with 8 samples.

Results

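Glycolysis splits glucose into pyruvate in the cytosol, and in many tumour cells most of that pyruvate leaves the cell as lactate even when oxygen is present. The remainder can enter the mitochondrion, where the pyruvate dehydrogenase complex oxidises it. Pyruvate dehydrogenase kinases switch that complex off by phosphorylation and phosphatases switch it on again. Most steps are catalysed by alternative isozymes from separate genes. Some are abundant in nearly every cell and some are raised by hypoxia-inducible factors, and a gene can be both. The genes described here encode these steps from glucose uptake to pyruvate entry, together with enzymes of glycogen and of the reverse route toward glucose. The list names 39 genes by symbol, and it was proposed with earlier results of these data known, so its direction is not independent evidence. Of these, 37 had a probe set with that symbol, among 19775 genes compared. The monocarboxylate transporter genes SLC16A1 and SLC16A3, which carry lactate across the plasma membrane, had no probe set named for them alone in the annotation used and were not analysed here. Where a gene had several probe sets, the brightest on average stood for it.

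Gene expression was measured on 8 arrays of H460, an established human non-small-cell lung cancer line, cultured in RPMI medium with serum. The 4 H460R arrays held cells with acquired resistance to TRAIL, an apoptosis-inducing ligand, after daily exposure to subtoxic TRAIL for 6 months. The 4 H460S arrays held TRAIL-sensitive control H460 cells. The labels do not give a clone or population for H460R, the cell density at harvest, or separate cultures for the arrays. Spread between arrays, the base of every p-value here, may thus be technical, and resistance cannot be told apart from the long exposure itself.

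The deposited values are linear signals, here called signals, in which every array has the same trimmed mean. Levels and changes are given on the log2(signal + 1) scale, changes as H460R minus H460S with limma's standard error, n = 4 per group. A gene rose or fell when its Benjamini-Hochberg adjusted p from limma over all 19775 genes was below 0.05. In bulk RNA, fewer cells expressing a gene and less RNA per cell cannot be told apart. The median signal per array was between 32.6 and 37.4, and the median gene had a level of 6.10. The keratin genes KRT8, KRT18 and KRT19 were well above it on both sides, at 11.28 to 13.12 in H460R and 11.41 to 13.18 in H460S, whereas the epithelial markers EPCAM and CDH1 were below it, at 3.83 and 2.29 in H460R and at 4.40 and 2.43 in H460S. Of 10 measured markers of leukocytes, endothelium and fibroblasts, 2 were above the level of the median gene, CD14 at 6.67 in H460R and 6.47 in H460S and COL1A1 at 7.30 in H460R and 7.67 in H460S, and PDGFRB fell by 1.12. KRT19 fell by 1.24. The 3' minus 5' difference of the ACTB control probe sets, a measure of RNA integrity and labelling, was 0.11 ± 0.01 in H460R and 0.23 ± 0.00251 in H460S (SD, n = 4 each), without overlap (two-sided exact permutation p = 0.0286, the smallest possible). That of GAPDH was -0.13 ± 0.07 in H460R and -0.14 ± 0.00987 in H460S (exact permutation p = 0.686). The part of the ACTB difference in the results below was not tested. With the GAPDH difference as a covariate, 24 of the 37 genes fell and 3 rose, in place of 21 and 4 without it.

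Transcripts of the pathway were lower in resistant cells at most steps, and the falls were uneven between isozymes. Of the 37 genes, 21 fell (56.8%), 4 rose (10.8%) and 12 did not pass, where 15.6% of all genes compared fell, 14.7% rose and 30.3% passed in either direction. After quantile normalization 19 fell and 4 rose, against 14.7% and 15.4% of all genes. Of the 79 probe sets of these genes, 34 fell and 7 rose, against 10.4% and 9.13% of all probe sets. Among the genes that fell, 12 did so by at least 2-fold, against 4.64% of all genes, and 1 rose by at least 2-fold, against 3.12%. All 4 H460R arrays were below all 4 H460S arrays for 23 genes (62.2%), against 17.4% of all genes, and above them for 4 genes, against 16.5%. The median change was -0.43 over the pathway and -0.03 over all genes. Of the 37 genes, 36 were above the level of the median gene, and the share of all genes that fell differed by level. Below a level of 7, 7.87% of all genes fell and 0 of 3 of the pathway. The shares of all genes were 27.1% at levels of 7 to 9, 25.1% at 9 to 11, 24.4% at 11 to 13 and 19.6% from 13. There, 3 of 4, 10 of 14, 6 of 8 and 2 of 8 genes of the pathway fell. The falls of at least 2-fold were in glucose uptake (SLC2A1, SLC2A3), hexokinase (HK2), phosphofructokinase and its control (PFKL, PFKFB4), aldolase (ALDOC), enolase (ENO2), pyruvate dehydrogenase kinases (PDK1, PDK3), glycogen breakdown (PYGL) and pyruvate or oxaloacetate conversion (PC, PCK2).

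**Figure D1:**
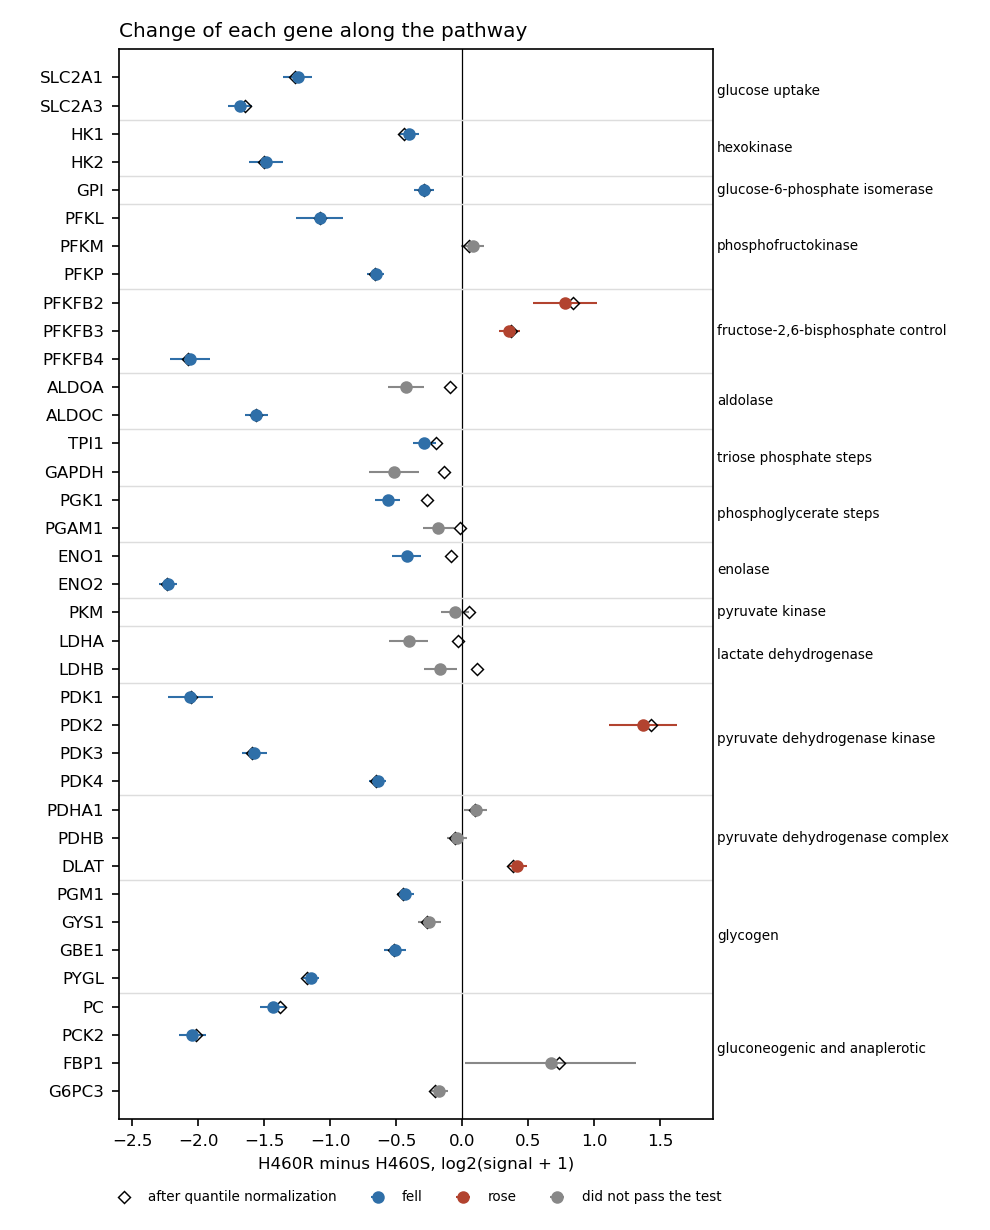
The 37 measured genes in the order of the pathway, top to bottom, with the change (H460R minus H460S, log2(signal + 1)) as a filled point and limma's standard error as a bar, coloured by the test; open diamonds give the change after quantile normalization. The 12 falls of at least 2-fold and the rise of PDK2 keep their direction under normalization, whereas ALDOA, GAPDH, PGK1, ENO1, LDHA and LDHB shift toward or past 0.

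Both glucose transporter genes fell. SLC2A3, which encodes the high-affinity transporter GLUT3, had a signal of 2399, 2451, 2544 and 2426 on the 4 H460R arrays, against 6766, 8518, 7819 and 8576 on the 4 H460S arrays. The groups were far apart and the change was -1.68 ± 0.09 (adjusted p = 3.00e-05), with changes of -1.96 to -1.68 over its 3 probe sets. SLC2A1, which encodes the widely expressed transporter GLUT1, had a signal of 473, 578, 488 and 615 on the 4 H460R arrays, against 1332, 1252, 1327 and 1178 on the 4 H460S arrays, a change of -1.25 ± 0.11 (adjusted p = 0.000189). Every H460R array was below every H460S array for both genes. The second and dimmer SLC2A1 probe set had a change of -0.81 ± 0.27 that missed the threshold (adjusted p = 0.0798 over all probe sets). Some SLC2A3 probe sets are shared with its close paralogue SLC2A14 in the annotation and were left out, so a part of the remaining signal may come from that gene.

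The hexokinases phosphorylate glucose and so trap it in the cell. HK2, the inducible form bound to mitochondria in many tumours, had a signal of 1321, 1006, 1409 and 1167 on the 4 H460R arrays, against 3893, 3357, 3138 and 3249.6 on the 4 H460S arrays, and fell by 1.48 ± 0.13 (adjusted p = 0.000190). HK1, the form found in most tissues, fell by 0.40 ± 0.08 (adjusted p = 0.00716), with signals of 1212 to 1345 in H460R and 1535 to 1783 in H460S. The difference HK2 minus HK1 was lower on every H460R array than on every H460S array. Both other HK2 probe sets were dim, at 5.73 and 4.94 in H460R and 5.40 and 4.43 in H460S, and did not follow the bright one, with changes of 0.33 ± 0.30 and 0.50 ± 0.35 that did not pass (adjusted p = 0.521 and 0.392). GPI, which interconverts glucose 6-phosphate and fructose 6-phosphate, fell by 0.29 ± 0.07 (adjusted p = 0.0238). That call was lost on leaving out any of 6 of the 8 arrays. In the limma fit over all probe sets the same GPI probe set did not pass (adjusted p = 0.0675).

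Phosphofructokinase, the committed step of glycolysis, is built from 3 kinds of subunit, and these differed. PFKL, the liver-type subunit, had a signal of 381, 328, 269.5 and 355 on the 4 H460R arrays, against 789, 528, 853 and 673 on the 4 H460S arrays, and fell by 1.08 ± 0.18 (adjusted p = 0.00341). PFKP, the platelet-type subunit, fell by 0.65 ± 0.06 (adjusted p = 0.000317), with signals of 3046 to 3295 in H460R and 4837 to 5134 in H460S. PFKM, the muscle-type subunit, overlapped between the groups at 11.01 ± 0.08 in H460R and 10.93 ± 0.13 in H460S (SD, n = 4 each), and its change of 0.08 ± 0.09 did not pass (adjusted p = 0.575, 95% interval -0.13 to 0.29). The bifunctional PFKFB enzymes make and break the allosteric activator of phosphofructokinase, and their genes moved in opposite directions. PFKFB4 had a signal of 514, 377, 434 and 526 on the 4 H460R arrays, against 2289, 1598, 1900.2 and 1957 on the 4 H460S arrays, and fell by 2.06 ± 0.15 (adjusted p = 9.63e-05). Its dimmer probe set fell by 1.95 ± 0.31. PFKFB3, the form with the highest kinase to phosphatase ratio, had a signal of 557, 574, 529.8 and 479.8 on the 4 H460R arrays, against 407, 399, 436 and 422 on the 4 H460S arrays, and rose by 0.36 ± 0.08 (adjusted p = 0.0131). PFKFB2, known as the heart isoform, had a signal of 111, 139.9, 117 and 103 on the 4 H460R arrays, against 52.2, 96.3, 84.3 and 49.5 on the 4 H460S arrays. Its groups did not overlap but 2 of the H460S arrays came close to those of H460R. The rise of 0.78 ± 0.24 (adjusted p = 0.0452) was lost on leaving out any of 6 arrays. It was also lost with the GAPDH 3' minus 5' difference as a covariate (adjusted p = 0.0686). In the limma fit over all probe sets the same PFKFB2 probe set did not pass (adjusted p = 0.0648). A dimmer one rose there by 0.735 ± 0.19 (adjusted p = 0.0351). Its remaining probe sets, dimmer still, overlapped between the groups. Their changes of 1.09 ± 0.73 and 1.80 ± 0.59 did not pass (adjusted p = 0.373 and 0.0776).

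**Figure D2:**
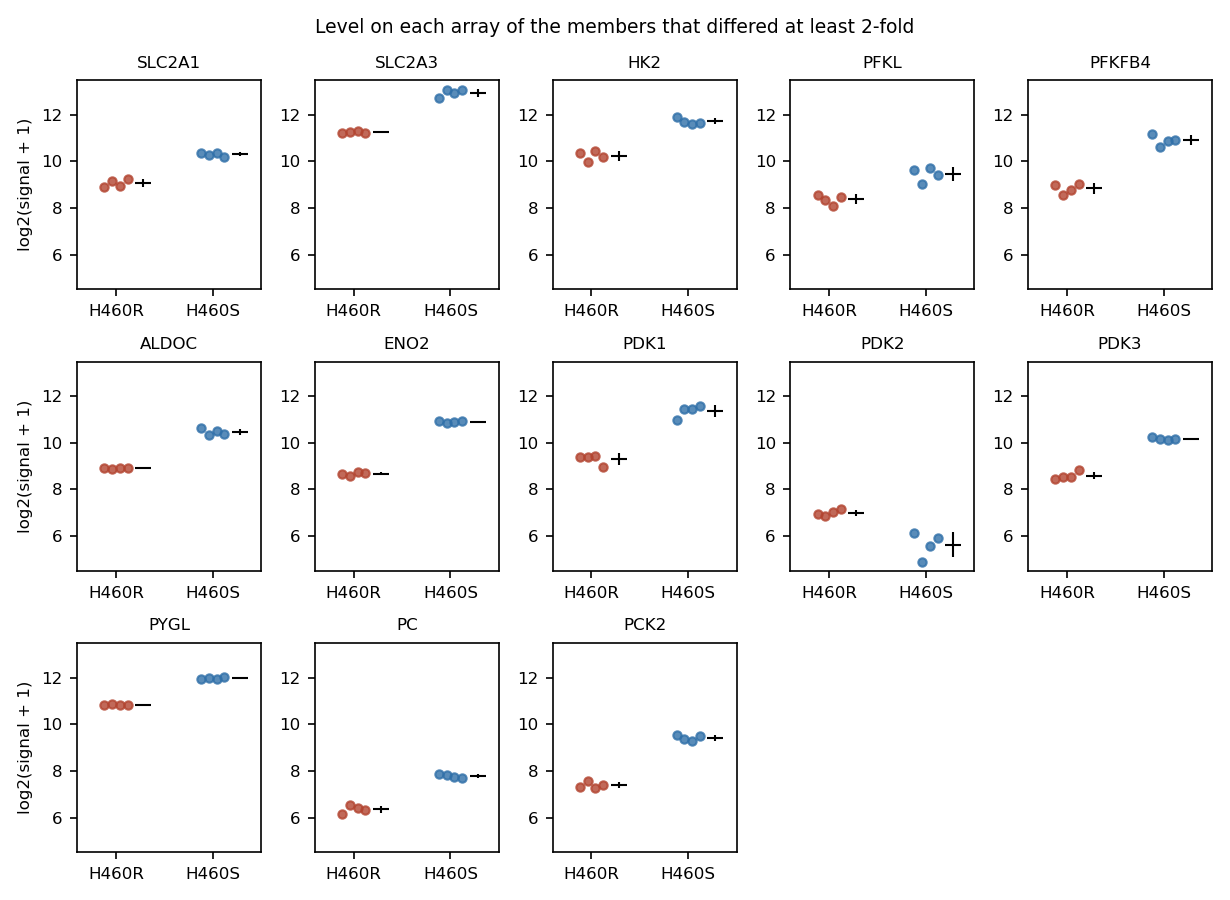
Level (log2(signal + 1)) on each of the 4 H460R (left) and 4 H460S (right) arrays for the 13 genes that passed and differed by at least 2-fold; black marks are the mean and its SD bar. In every panel the 4 H460R arrays lie on one side of the 4 H460S arrays, above them for PDK2 and below them for the other 12.

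The aldolases cleave fructose bisphosphate into triose phosphates, and enolase makes phosphoenolpyruvate. ENO2, the gamma enolase best known from neurons, showed the largest fall of the pathway, with a signal of 402, 386, 431 and 422 on the 4 H460R arrays, against 1963, 1826, 1905 and 1987 on the 4 H460S arrays. The change was -2.23 ± 0.07 (adjusted p = 3.39e-06). ALDOC, the brain-type aldolase, had a signal of 484, 465, 489.9 and 488 on the 4 H460R arrays, against 1613, 1287, 1450.3 and 1351 on the 4 H460S arrays, and fell by 1.56 ± 0.09 (adjusted p = 3.09e-05). The abundant counterparts had smaller changes. ENO1 had a signal of 11858, 12907, 11708 and 15715 on the 4 H460R arrays, against 18393, 17196, 16685 and 17056 on the 4 H460S arrays, a fall of 0.42 ± 0.11 (adjusted p = 0.0244) in which H460R replicate 4 stood closest to H460S. The ENO1 call was lost on leaving out any of 6 arrays. ALDOA overlapped between the groups, with a signal of 12197, 12862, 11857 and 17458 on the 4 H460R arrays, against 19899, 17479, 17454 and 17498 on the 4 H460S arrays, and its change of -0.43 ± 0.14 did not pass (adjusted p = 0.0526).

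The remaining steps down to lactate are carried by highly abundant transcripts, among the brightest of the 37. GAPDH, the dehydrogenase also used widely as a reference transcript, had a signal of 14090.4, 15394, 12925 and 21902 on the 4 H460R arrays, against 27740.3, 21388, 21366 and 20126 on the 4 H460S arrays. H460R replicate 4 was within the H460S range and the other 3 H460R arrays were below it, and the change of -0.51 ± 0.19 did not pass (adjusted p = 0.0814). LDHA, the lactate dehydrogenase subunit that favours lactate formation, had a signal of 13109, 14552, 12202 and 18687 on the 4 H460R arrays, against 21956, 18279.7, 17963 and 18515 on the 4 H460S arrays, with the same single H460R array among the H460S values and a change of -0.40 ± 0.15 that did not pass (adjusted p = 0.0822). PGK1, which makes the first ATP of the pathway, had a signal of 10431, 11647, 10332 and 12803 on the 4 H460R arrays, against 17426, 17080.2, 15608 and 16505 on the 4 H460S arrays and fell by 0.56 ± 0.09 (adjusted p = 0.00332). All 6 of its probe sets were lower, with changes of -0.87 to -0.32, and 4 of them passed over all probe sets. PGAM1, the mutase, had a change of -0.18 ± 0.12, LDHB one of -0.17 ± 0.12 and PKM, the pyruvate kinase of most tumours, one of -0.05 ± 0.11, none of which passed (adjusted p = 0.309, 0.390 and 0.777). The 95% interval for PKM was -0.31 to 0.20. TPI1, the triose phosphate isomerase, fell by 0.28 ± 0.09 in the fit over genes (adjusted p = 0.0426). In the limma fit over all probe sets the same probe set did not pass (adjusted p = 0.0957). Nor did the second bright one there (-0.17 ± 0.10, adjusted p = 0.289). The dim TPI1 probe set, of level 6.63 in H460R and 5.29 in H460S, rose in that fit by 1.34 ± 0.32 (adjusted p = 0.0263), so the probe sets of TPI1 disagree. The TPI1 fall was lost on leaving out any array but H460R replicate 4. The probe sets used for ALDOA, GAPDH, TPI1 and LDHB, and for PFKL, carry the suffix _x_at for possible cross-hybridisation. Their signal may include other transcripts and is uncertain to that extent.

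These small falls moved with the bright end of the arrays. The signal exceeded by the brightest 0.1% of probe sets was 14697, 15929, 14348 and 22140.4 on the 4 H460R arrays, against 25099.7, 20633, 21041 and 20554 on the 4 H460S arrays. H460R replicate 4 was thus within the H460S range and the other 3 H460R arrays were below it. The part of the bright end in the small falls was not tested beyond the alternatives given here. All 168 genes with a mean level, rounded to 2 decimals, of at least 13 had a median change of -0.29, and the 8 of the pathway among them (ALDOA, GAPDH, PGK1, PGAM1, ENO1, PKM, LDHA and LDHB) had one of -0.41. After quantile normalization those medians were -0.01 for all bright genes and -0.06 for the 8. PGK1 was then the only one of the 8 that passed (-0.26, adjusted p = 0.0367), while ENO1 (-0.09, adjusted p = 0.347), ALDOA (-0.09), GAPDH (-0.13) and LDHA (-0.03) did not. Without H460R replicate 4 the 8 changes were more negative: 7 passed, all but PKM, with GAPDH at -0.67 (adjusted p = 0.0129), LDHA at -0.53 (adjusted p = 0.0134) and ALDOA at -0.55 (adjusted p = 0.00388), and 27 genes of the pathway fell in place of 21. With the arrays of highest bright end in both groups left out, H460R replicate 4 and H460S replicate 1, a choice made after seeing the data, 25 fell. All 12 falls of at least 2-fold stayed past the threshold and that size after quantile normalization and in both of these omissions. Genes of the pathway with a level of 9 to 11 had a median change of -0.94 as deposited and -0.96 after quantile normalization, against 0.07 and 0.04 for all genes of that level.

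**Figure D3:**
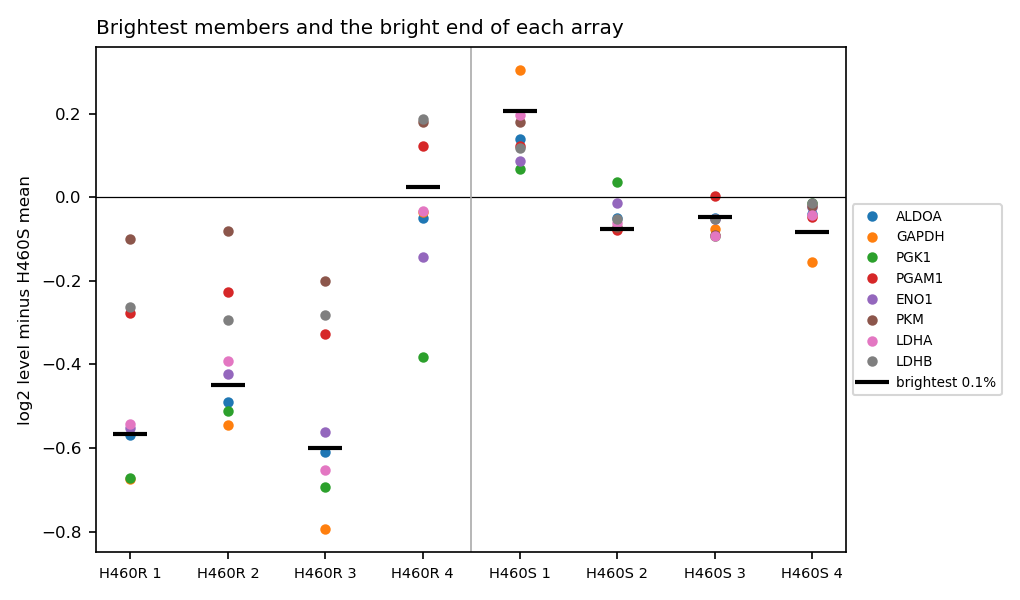
Level on each array of the 8 genes of the pathway with a mean level (rounded to 2 decimals) of at least 13, relative to that gene's H460S mean (log2), with the signal exceeded by the brightest 0.1% of probe sets as a black bar treated in the same way. On H460R arrays 1 to 3 all 8 genes and the bar lie below 0; on H460R array 4 the bar is near 0 and LDHB, PKM and PGAM1 lie above it.

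**Figure D4:**
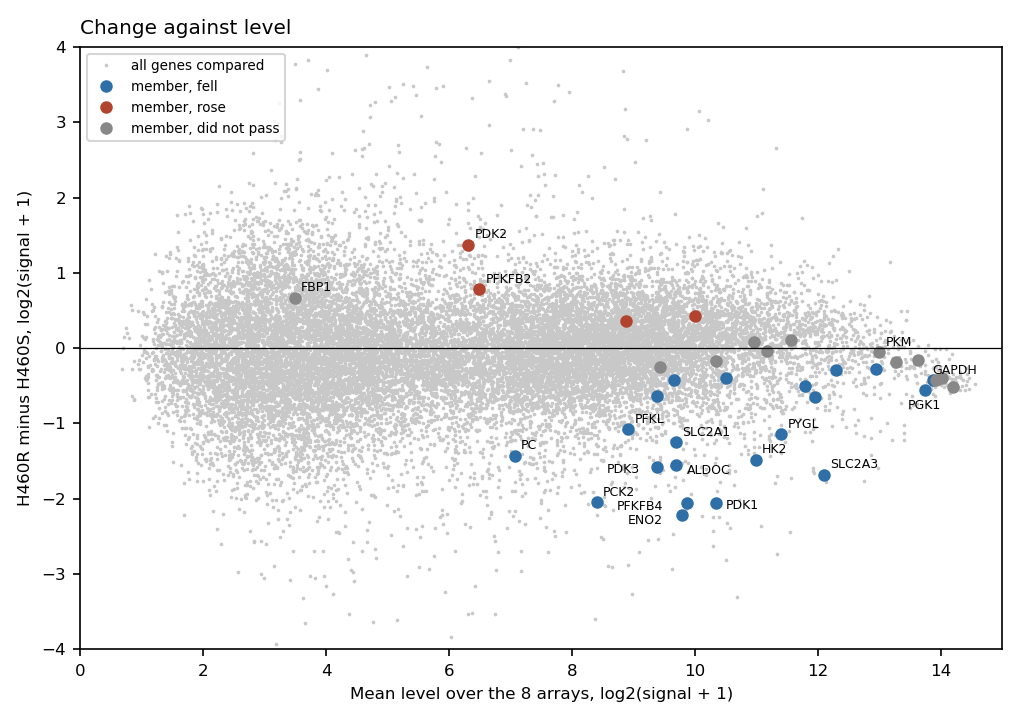
Change (H460R minus H460S, log2(signal + 1)) against the mean level over the 8 arrays for all genes compared (grey; 28 genes changed by more than 4 lie outside the axis) and for the 37 genes of the pathway, coloured by the test. The large falls lie at middle levels, while the 8 brightest have smaller changes, with a median of -0.41, where the 168 genes of at least that level had a median of -0.29.

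Control of the pyruvate dehydrogenase complex showed the widest split between isozymes. PDK1, a kinase gene induced by hypoxia-inducible factors, had a signal of 681, 679.6, 703 and 494 on the 4 H460R arrays, against 2030.1, 2829, 2775 and 3044 on the 4 H460S arrays. H460R replicate 4 was the lowest array and all H460R values were far below H460S, a change of -2.06 ± 0.17 (adjusted p = 0.000157), with changes of -2.06 to -1.54 over its 3 probe sets. PDK3 had a signal of 350.6, 372, 373 and 456 on the 4 H460R arrays, against 1205, 1143, 1124 and 1136 on the 4 H460S arrays, and fell by 1.57 ± 0.10 (adjusted p = 4.50e-05). All 5 of its probe sets fell. PDK4, the kinase raised by fasting and fatty acids in other tissues, had signals of 515 to 554 in H460R and 811 to 850.3 in H460S and fell by 0.64 ± 0.06 (adjusted p = 0.000345). PDK2, the most widely expressed of the kinases, rose. It had a signal of 121, 115, 132 and 141 on the 4 H460R arrays, against 68.8, 28.7, 46.7 and 58.7 on the 4 H460S arrays, a rise of 1.37 ± 0.26 (adjusted p = 0.00592). Its level of 5.62 in H460S was below that of the median gene. Its other probe set was dimmer and had a change of 0.63 ± 1.01 that did not pass. Within the complex itself, DLAT, the acetyltransferase core subunit, rose by 0.42 ± 0.07 (adjusted p = 0.00466), and all 3 of its probe sets did. DLAT had signals of 1113 to 1227 in H460R and 833 to 958 in H460S. The E1 subunit genes PDHA1 and PDHB had changes of 0.10 ± 0.09 and -0.04 ± 0.07 that missed the threshold (adjusted p = 0.459 and 0.770, 95% intervals -0.11 to 0.31 and -0.21 to 0.14).

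The difference between isozymes was tested within arrays, on the log2 difference of the 2 genes, over 17 pairs that share a step, with exact two-sided permutation tests and Benjamini-Hochberg adjustment over the 17 pairs. In 13 pairs the groups did not overlap (exact p = 0.0286, the smallest possible, adjusted p = 0.0374). Such differences say that 2 genes changed unequally and compare no level of different probe sets. ENO2 minus ENO1 differed by -1.81 ± 0.11 (log2, SE), ALDOC minus ALDOA by -1.13 ± 0.13 and HK2 minus HK1 by -1.08 ± 0.16. Against PFKM, the difference was -1.16 ± 0.16 for PFKL and -0.73 ± 0.06 for PFKP. PFKFB4 stood apart from PFKFB3 by -2.42 ± 0.19 and from PFKFB2 by -2.85 ± 0.39. PDK2 stood apart from the other kinases, with -3.43 ± 0.39 for PDK1 minus PDK2, 2.95 ± 0.26 for PDK2 minus PDK3 and 2.01 ± 0.29 for PDK2 minus PDK4, and PDK4 fell less than PDK1 and PDK3. LDHA minus LDHB differed by -0.24 ± 0.06. Both are very bright, and their own changes did not pass. The pairs SLC2A3 and SLC2A1 (-0.44 ± 0.15, exact p = 0.0571), PFKP and PFKL (0.43 ± 0.18, exact p = 0.0571, both adjusted p = 0.0648), PFKFB3 and PFKFB2 (-0.42 ± 0.25, exact p = 0.171, adjusted p = 0.171) and PDK1 and PDK3 (-0.48 ± 0.25, exact p = 0.114, adjusted p = 0.121) did not pass, which does not show that they changed alike. With the mean of all probe sets, HK2 minus HK1 turned to 0.19 (adjusted exact p = 0.343), since both dim HK2 probe sets did not fall.

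**Figure D5:**
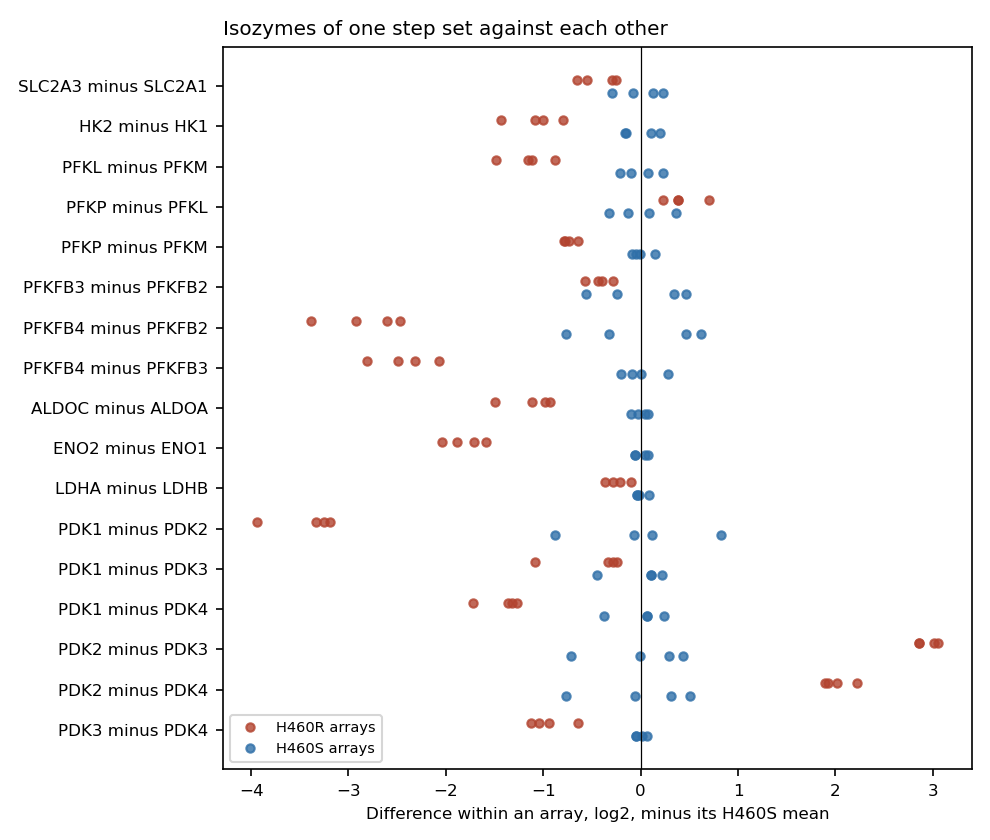
Within-array log2 difference of 2 isozymes, minus its mean over the H460S arrays, for each of 17 pairs (rows); upper points are the 4 H460R arrays and lower points the 4 H460S arrays. The groups are apart in 13 rows, farthest for PDK1 minus PDK2, PDK2 minus PDK3 and PFKFB4 minus PFKFB2.

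Of the 4 glycogen genes 3 fell, and of the 4 genes of glucose synthesis and oxaloacetate supply 2 fell. PYGL, the liver-type glycogen phosphorylase that releases glucose from glycogen, had a signal of 1831, 1863, 1839 and 1808 on the 4 H460R arrays, against 3993, 4062, 3985 and 4199 on the 4 H460S arrays, and fell by 1.15 ± 0.06 (adjusted p = 2.25e-05). PGM1, which links glycogen to glucose 6-phosphate, fell by 0.43 ± 0.06, and GBE1, the glycogen branching enzyme, by 0.51 ± 0.08 (adjusted p = 0.00204 and 0.00300). GYS1, the glycogen synthase, missed the threshold with a change of -0.25 ± 0.09 (adjusted p = 0.0799), though its H460R arrays were all below those of H460S. PCK2, the mitochondrial phosphoenolpyruvate carboxykinase and a known target of the stress factor ATF4, had a signal of 157, 187, 155 and 166 on the 4 H460R arrays, against 756, 654, 617 and 729 on the 4 H460S arrays, and fell by 2.04 ± 0.10 (adjusted p = 1.88e-05). PC, which carboxylates pyruvate to oxaloacetate, had a signal of 69.9, 92.4, 82.9 and 78.8 on the 4 H460R arrays, against 235, 224, 210.2 and 208 on the 4 H460S arrays, and fell by 1.43 ± 0.10 (adjusted p = 8.18e-05). For FBP1, the gluconeogenic bisphosphatase, all 8 signals were low, 7.0 to 25.7 in H460R and 3.1 to 24.9 in H460S, and no difference could be told at this signal level (change 0.67 ± 0.65, adjusted p = 0.508). G6PC3, a ubiquitous glucose-6-phosphatase, had a change of -0.17 ± 0.07 that did not pass (adjusted p = 0.113).

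Promoters are shown for the genes with the largest falls that have a single start in the RefSeq table of build GRCh38.p14, and for DLAT, which rose and also has 1 start, because several of these genes are known in general as targets of hypoxia-inducible factors.
Each sequence is the 250 bases before the start, 5′ to 3′ on the gene's strand, and capitals mark ACGTG or GCGTG, the core of the hypoxia response element, on either strand. In CACGTG the letters match on both strands and overlap.
The regions are ENO2 at chr12:6914330-6914579, plus strand, PFKFB4 at chr3:48556804-48557053, minus strand, PCK2 at chr14:24094061-24094310, plus strand, PDK3 at chrX:24465036-24465285, plus strand, ALDOC at chr17:28576896-28577145, minus strand and DLAT at chr11:112025158-112025407, plus strand.
ENO2: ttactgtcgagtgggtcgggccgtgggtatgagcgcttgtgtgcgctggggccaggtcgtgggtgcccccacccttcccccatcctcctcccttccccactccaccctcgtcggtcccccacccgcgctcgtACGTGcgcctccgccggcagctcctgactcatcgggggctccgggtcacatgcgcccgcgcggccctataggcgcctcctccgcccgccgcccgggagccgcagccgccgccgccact
PFKFB4: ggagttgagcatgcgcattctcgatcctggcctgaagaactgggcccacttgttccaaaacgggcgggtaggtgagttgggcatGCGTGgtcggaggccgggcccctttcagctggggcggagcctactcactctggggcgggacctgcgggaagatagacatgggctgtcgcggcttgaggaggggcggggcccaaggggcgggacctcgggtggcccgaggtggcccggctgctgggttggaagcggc
PCK2: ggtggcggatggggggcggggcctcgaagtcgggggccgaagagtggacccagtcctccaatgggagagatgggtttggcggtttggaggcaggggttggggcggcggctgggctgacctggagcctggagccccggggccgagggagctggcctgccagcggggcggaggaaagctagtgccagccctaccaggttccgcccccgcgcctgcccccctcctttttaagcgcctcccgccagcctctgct
PDK3: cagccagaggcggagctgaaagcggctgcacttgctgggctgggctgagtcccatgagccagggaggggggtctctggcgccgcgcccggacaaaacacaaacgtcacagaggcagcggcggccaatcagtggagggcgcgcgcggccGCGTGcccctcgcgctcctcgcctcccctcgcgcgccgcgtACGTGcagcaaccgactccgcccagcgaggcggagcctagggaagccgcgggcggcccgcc
ALDOC: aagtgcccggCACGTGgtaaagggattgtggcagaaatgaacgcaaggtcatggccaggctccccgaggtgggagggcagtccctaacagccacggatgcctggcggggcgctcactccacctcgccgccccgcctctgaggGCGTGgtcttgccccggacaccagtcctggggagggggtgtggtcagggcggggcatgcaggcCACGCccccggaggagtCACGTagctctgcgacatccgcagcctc
DLAT: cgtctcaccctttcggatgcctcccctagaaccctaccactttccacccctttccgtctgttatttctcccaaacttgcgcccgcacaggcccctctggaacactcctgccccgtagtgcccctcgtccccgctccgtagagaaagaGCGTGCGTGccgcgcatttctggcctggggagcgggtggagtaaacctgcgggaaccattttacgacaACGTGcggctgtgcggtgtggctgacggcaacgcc

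The core occurred 1 time before ENO2 and PFKFB4, 2 times before PDK3, 3 times before DLAT and 5 times before ALDOC, counting strands separately, and 0 times in this window before PCK2. The table held 36 of the 39 genes, 14 of them with several starts. At least 1 core lay in 18 of 36 windows of genes of the pathway that fell (50.0%), in 4 of 6 of those that rose and in 14 of 23 of those that did not pass (60.9%), against 43.2% of all 35116 windows in the table and 52.5% of the windows of all genes that fell. For ACGTG alone the shares were 36.1% for genes of the pathway that fell and 43.5% for those that did not pass, against 21.7% for all genes that fell and 19.4% for all that did not pass. For GCGTG alone they were 36.1% and 21.7%, against 40.8% and 36.4%. Some windows of the same gene overlap, and no test was made. A match describes sequence only, not binding.

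Neighbouring genes of the pathway, taken from lists chosen with earlier results of these data known, held calls in both directions, where 15.6% of all genes fell and 14.7% rose. Of 16 other measured glycolytic isozymes and controls, 1 rose and 1 fell, and 12 of the 16 were below the level of the median gene. HKDC1, a hexokinase-like gene, rose by 0.89 ± 0.12 and GCKR, the regulator of glucokinase, fell by 1.58 ± 0.27, both at low levels. Of 10 other genes of sugar and monocarboxylate transport, SLC2A6 and SLC2A8 rose by 1.25 ± 0.11 and 1.02 ± 0.20. SLC2A12 fell by 1.58 ± 0.33 at a low mean level of 4.95, so these changes were opposite in part to those of SLC2A1 and SLC2A3. In pyruvate entry, PDP1, the catalytic phosphatase that reverses the action of the kinases, had a signal of 531, 546, 492 and 453 on the 4 H460R arrays, against 110.3, 154, 159 and 154 on the 4 H460S arrays. It rose by 1.81 ± 0.14 (adjusted p = 0.000110), without overlap. Of the 7 measured genes of that list, 1 rose and 2 fell: PDHX and PDPR changed by -0.32 ± 0.07 and -0.36 ± 0.08. Of 16 other glycogen and gluconeogenesis genes, 4 rose and 5 fell. PYGB, the brain-type phosphorylase, fell by 0.68 ± 0.09, PCK1, the cytosolic carboxykinase, by 1.59 ± 0.12 and PYGM, the muscle-type phosphorylase, rose by 1.49 ± 0.39, the last 2 at low levels, and PHKG2, a phosphorylase kinase subunit, rose by 0.45 ± 0.14. Among 10 regulators, EGLN3 and EGLN1, oxygen sensors that mark hypoxia-inducible factors for breakdown and are themselves induced by them, fell by 1.41 ± 0.09 and 0.68 ± 0.07 (adjusted p = 5.87e-05 and 0.000404), and EPAS1, which encodes HIF-2 alpha, rose by 0.61 ± 0.07 (adjusted p = 0.000783). HIF1A, named after its value was seen, had a change of 0.21 ± 0.07 that missed the threshold (adjusted p = 0.0561).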

How the data were processed

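The authors deposited an intensity for each of 54675 probe sets on each of 8 arrays, on a linear scale. The submitters' processing notes name RMA, but the mean of the linear values, with the top and bottom 2% set aside, is 200 for each array, the form of MAS 5-type signals, so how the authors made the intensity values is not settled. A gene list's members, the other lists and the tests were chosen with earlier results of these data known. From the platform annotation, 41097 probe sets had 1 symbol, 1801 had several and were not used, and 11777 were not listed. Symbols were updated through gene identifiers to RefSeq GRCh38.p14. A pseudocount of 1 was added before log2, and no further normalization or filter was applied. Fold changes of dim genes are thereby understated. The groups' log2 values went into limma 3.58.1 under R 4.3.3 (lmFit, eBayes, Benjamini-Hochberg) over 19775 genes, and separately over 54613 probe sets without the 62 control probe sets. Pairs of genes and control differences were compared with exact permutation tests over 70 assignments. On simulated data for this gene-level fit over 19775 genes, 47.8% of genes changed 1.5-fold, 86.6% changed 2-fold and 100% changed 4-fold were recovered, with 9 false calls. These were 67, 67 and 66 genes, all above the median level, so the recovered shares do not cover dimmer genes. Far more genes were called in the data than were changed in the simulation. Any of the 39 genes could be named. From each other list, up to 4 with the largest change that passed were named. Arrays have no read depth, and their number limits the precision. Alternatives were a replicate block, an intensity trend with robust prior, array weights, leaving out dim genes, quantile normalization, median centring, a pseudocount of 16, other probe set choices, the GAPDH covariate and leaving out arrays.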

Additional observations from a re-analysis of the deposited data

Results flagged for a closer look

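In 5 of 74 groups of 4 arrays (37 genes in each of H460R and H460S) 1 array stood far from the other 3 by Dixon's test, which chance does in about 1 in 20 groups. Of the 5, 3 are H460R replicate 4 and 2 are H460S replicate 1, the arrays with the highest bright end in their groups. LDHB was at 13.91 on H460R replicate 4, where the other H460R arrays were at 13.43 to 13.46. ALDOA was at 14.28 on H460S replicate 1, where the others were at 14.09, and LDHA at 14.42, where the others were at 14.13 to 14.18. PDK1 was at 8.95 on H460R replicate 4, below the others at 9.41 to 9.46, and DLAT at 10.12, below the others at 10.25 to 10.26. PDK1 and DLAT have moderate levels and were lower on that array, the opposite of LDHB there. Without H460R replicate 4, PDK1 still fell by 1.94 and DLAT rose by 0.45.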

How the results depend on the processing

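Over the alternatives, 17 to 27 genes of the pathway fell and 3 or 4 rose, except on probe sets without the suffix _x_at or _s_at, where only 23 genes remained and 14 fell and 2 rose. Falls of at least 2-fold numbered 12 in all settings but leaving out H460R replicate 3 or H460S replicate 3 (11 each), the mean of all probe sets (10) and probe sets without a suffix (9). The median change of the pathway was -0.26 after quantile normalization, -0.35 after median centring and -0.64 without suffixed probe sets, and -0.51 to -0.38 when leaving out each array. In pair tests without suffixed probe sets, 5 pairs were apart, as fewer pairs could be measured. Some signs changed: PKM became 0.0493 (quantile), 0.0201 (centring) and 0.0078 (without H460S replicate 1, range over arrays left out -0.13 to 0.0078), LDHB 0.12 (quantile), and PDHB 0.0365 (centring) and 0.0004 (without H460S replicate 1, range -0.0661 to 0.0004), none of which passed. TPI1, which fell by 0.28, became 0.29 with the mean of all probe sets (adjusted p = 0.156) and rose by 1.34 on its unsuffixed probe set (adjusted p = 0.0218). HK2 minus HK1, at -1.08 and apart between groups, became 0.19 with the mean of all probe sets (adjusted exact p = 0.343). The GAPDH 3' minus 5' difference between groups was -0.0074 to 0.0458 when leaving out each array, and was -0.0074 without H460R replicate 3. GPI, TPI1, ENO1 and PFKFB2 lost their calls on leaving out 6, 7, 6 and 6 of the 8 arrays. For HK2, PFKP and PDK2 the call was lost with the mean of all probe sets, and for SLC2A1 without suffixed probe sets.

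The labels do not say whether replicate numbers pair arrays. Deviations of same-numbered arrays correlated at -0.03, 0.0048, 0.01 and -0.02, and not every array correlated best with its own number. No effect shared by same-numbered arrays was thus seen, which cannot show that the arrays were unpaired. With the replicate block, 17 genes of the pathway fell and 3 rose, the calls of HK1 (adjusted p = 0.0612) and PFKFB3 (adjusted p = 0.0734) were lost along with those of GPI, TPI1 and ENO1, 2268 of all genes fell and 2088 rose in place of 3086 and 2900, and 5062 probe sets in place of 10637. Low signals limit FBP1, PDK2 and PFKFB2.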

Other observations

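The pentose phosphate pathway, which branches from glucose 6-phosphate and yields NADPH and ribose, was lower in resistant cells, whereas the citric acid cycle was mixed. Of 6 measured pentose phosphate genes, 4 fell and 0 rose, with a median change of -0.48 (limma, adjusted p below 0.05 over all genes): RPE, an epimerase, fell by 0.91 ± 0.08, PGD, which forms NADPH, by 0.79 ± 0.07, PGLS, a lactonase, by 0.59 ± 0.09 and TKT, the transketolase, by 0.37 ± 0.08. TKT is among the very bright genes, whose median change was -0.29. Of 14 measured citric acid cycle genes, 2 rose and 4 fell, with a median change of 0.14. SDHA, the flavoprotein of succinate dehydrogenase, fell by 0.60 ± 0.09 and SUCLG2, a succinyl-CoA ligase subunit, by 0.47 ± 0.09. The isocitrate dehydrogenase subunit genes IDH3A and IDH3G changed in opposite directions, by 0.44 ± 0.09 and -0.42 ± 0.06. Over all 19775 genes, 15.6% fell and 14.7% rose. These lists were chosen with earlier results of the data known.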
